A study of Homo sapiens with 4 samples.

Results

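IL13RA2, IL13RA1, IL4R and STAT6 encode the receptor chains for the cytokines IL-4 and IL-13 and the transcription factor on which those chains act. They were taken by gene symbol as 4 of the 32973 genes in a table of RNA levels, and all 4 were found. RNA was sequenced from T24T, a derivative of the human bladder carcinoma line T24, and from UMUC3, a line from another human bladder carcinoma. Stable transfectants of each line carried an empty vector or a construct that overexpresses the circular RNA BCUC-1 (hsa_circ_0001361), and the aim was to find genes that BCUC-1 acts on. A line with its construct made a group, and each of the 4 groups held 1 library. Pairs of values below give the vector library before the BCUC-1 library. Both lines were grown in the same serum-containing medium, and no cytokine treatment is named. Whether a transfected line was 1 clone or a pool is not given in the sources used here. The set of genes was chosen because IL13RA2 is among the genes that stand furthest above T24T in UMUC3, so every difference between the lines is given below as a description with no test.

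IL-4 binds the chain encoded by IL4R, which pairs either with the common gamma chain or with the IL-13 receptor chain encoded by IL13RA1. The IL4R and IL13RA1 pair also receives IL-13. Janus kinases bound to these chains phosphorylate STAT6, which then enters the nucleus and activates genes of type 2 responses. IL13RA2 encodes a further chain that binds IL-13 tightly and has a short cytoplasmic tail without a Janus kinase site. It is known as a decoy for IL-13, and as a tumour antigen of several cancers, glioblastoma above all.

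Base composition moved with one of the comparisons below, so the first coding bases of IL13RA2, the most AT-rich of the 4 genes, are shown beside those of IL4R and STAT6, 5′ to 3′ on the coding strand with the start codon in capitals, from GENCODE release 29 on GRCh38. They run up to the end of the first coding exon or to 90 bases.
IL13RA2: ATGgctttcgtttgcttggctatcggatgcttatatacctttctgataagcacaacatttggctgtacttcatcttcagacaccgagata
IL4R: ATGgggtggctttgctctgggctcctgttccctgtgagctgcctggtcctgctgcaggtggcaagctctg
STAT6: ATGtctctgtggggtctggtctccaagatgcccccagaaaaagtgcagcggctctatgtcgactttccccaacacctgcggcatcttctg
These stretches lie at chrX:115017180-115017269 (minus strand), chr16:27340204-27340273 (plus) and chr12:57108189-57108278 (minus). Over the whole coding sequence, G and C made up 37.9% of the 1143 bases of IL13RA2 and 43.9% of the 1284 bases of IL13RA1. They made up 59.3% of the 2478 bases of IL4R and 57.9% of the 2544 bases of STAT6. The first coding bases need not follow these values. Those shown held 41.1% for IL13RA2, 62.9% for IL4R and 55.6% for STAT6. The first 88 of IL13RA1, which are not shown, held 84.1%.

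The reads assigned to genes numbered from 22730112 to 26497894 per library. Levels are given as RPKM, reads scaled to the exonic length of a gene and to the assigned reads of its library. Of 7 epithelial markers 3 reached 1 RPKM, all of them keratins. Fold counts of markers are on log2(RPKM + 1) and hold in both the vector and the BCUC-1 libraries. All 3 keratins were at least 2-fold lower in UMUC3, as were 8.29% of all genes that reached 1 RPKM. KRT8 stood at 133 and 146 RPKM in T24T and at 13.0 and 13.2 in UMUC3. Of 5 mesenchymal markers 4 reached 1 RPKM. VIM and ZEB1 were at least 2-fold higher in UMUC3, as were 6.47% of all genes that reached 1 RPKM. CDH2 was at 6.64 and 6.64 RPKM in T24T against 5.50 and 5.31, and FN1 at 1.77 and 1.58 against 0.822 and 0.999. The adhesion genes EPCAM and CDH1 stayed at or under 0.219 RPKM, and the 10 urothelial markers, uroplakins among them, at or under 1.87. Of 7 leukocyte markers 4 were measured, with summed levels of 7.55 and 6.84 RPKM in T24T and of 119 and 125 in UMUC3. Nearly all of this was CD68, a lysosomal membrane protein. CD14 and ITGAM stayed at or under 0.213 RPKM, and 3 endothelial markers at or under 0.0381. CD68 moved with the line as IL13RA2 and STAT6 did, and its part in their levels was not tested. BCUC-1 itself was not analysed here, since the table gives levels per gene that do not separate circular from linear RNA. Its overexpression was thus not checked.

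IL13RA2 was abundant in UMUC3 and close to absent in T24T. Its gene (ENSG00000123496) lies on the minus strand of chromosome X from 115003975 to 115019977 on GRCh38, with 1626 exonic bases. IL13RA2 was covered by 9 and 19 reads in the T24T libraries and by 5745 and 4258 in the UMUC3 libraries. These correspond to 0.234 RPKM (95% interval 0.107 to 0.444), 0.495 (0.298 to 0.774), 133 (130 to 137) and 115 (112 to 119). All intervals here are 95% intervals for counting error alone, and they are too narrow where several reads copy 1 molecule. Both UMUC3 libraries lay far above both T24T libraries, as the choice of IL13RA2 by this contrast required. How many of all genes separate the lines in this way, here or for the members below, was not counted. By RPKM, IL13RA2 was gene 308 and gene 364 from the top in the UMUC3 vector and BCUC-1 libraries, against 19395 and 16676 in T24T. In such bulk samples, fewer expressing cells and less RNA per cell cannot be told apart.

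IL13RA1, the signalling chain for IL-13, had the opposite order. It lies on the plus strand of the same chromosome from 118727572 to 118794539 (ENSG00000131724, 4372 exonic bases). IL13RA1 was covered by 1588 and 1617 reads in T24T, against 392 and 394 for UMUC3. In RPKM these were 15.3 (14.6 to 16.1), 15.7 (14.9 to 16.5), 3.38 (3.06 to 3.74) and 3.96 (3.58 to 4.38). Both T24T libraries were higher than both UMUC3 libraries.

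IL4R, the chain shared by the IL-4 and IL-13 receptors, differed least between the lines. It lies on the plus strand of chromosome 16 from 27313668 to 27364778 (ENSG00000077238, 5894 exonic bases). IL4R was covered by 636 and 668 reads in T24T, against 403 and 371 for UMUC3. Its levels were 4.56 RPKM (4.21 to 4.93), 4.80 (4.45 to 5.18), 2.58 (2.33 to 2.85) and 2.77 (2.49 to 3.07). Here too the T24T libraries were the higher ones.

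STAT6, the transcription factor activated through IL4R, followed IL13RA2 in being high in UMUC3 and near 0 in T24T. It lies on the minus strand of chromosome 12 from 57095408 to 57132139 (ENSG00000166888, 7298 exonic bases). STAT6 was covered by 29 and 28 reads in the T24T libraries and by 3432 and 3159 in the UMUC3 libraries. In RPKM these were 0.168 (0.112 to 0.241), 0.163 (0.108 to 0.235), 17.7 (17.2 to 18.4) and 19.0 (18.4 to 19.7). Part of the few T24T reads may belong to neighbours on the other strand, because 69 exonic bases are shared with NAB2, a transcriptional corepressor gene, and 59 with LRP1, a lipoprotein receptor gene. At the mean level of NAB2 those 69 bases would carry 10.4 reads in T24T vector, and at that of LRP1 the 59 bases would carry 3.13. How reads on shared bases were assigned is not given in the sources used here.

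**Figure D1:**
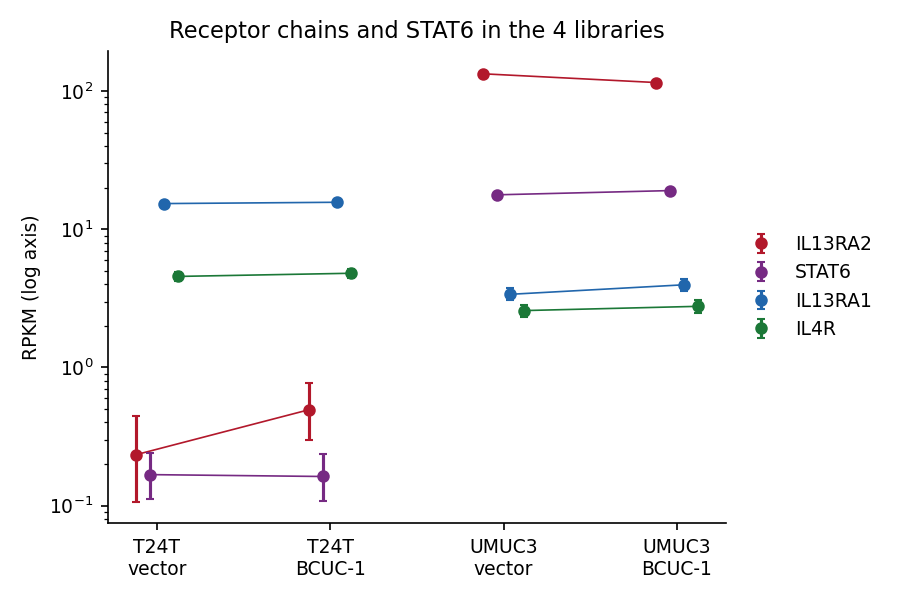
RPKM of IL13RA2, STAT6, IL13RA1 and IL4R (log axis) in each of the 4 libraries; bars are exact Poisson 95% intervals and lines join the vector and BCUC-1 libraries of a line. IL13RA2 and STAT6 lie below 0.5 RPKM in T24T and above 17 in UMUC3, while IL13RA1 and IL4R are higher in T24T.

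The order of the levels therefore differed between the lines. In both T24T libraries it ran IL13RA1, IL4R, IL13RA2, STAT6, and in both UMUC3 libraries IL13RA2, STAT6, IL13RA1, IL4R. IL13RA2 and STAT6 had overlapping intervals in T24T vector, while the other neighbours in these orders had separate ones. Per exon length, IL13RA1 RNA was 65.6 and 31.7 times IL13RA2 RNA in the T24T vector and BCUC-1 libraries. In UMUC3, IL13RA2 RNA was instead 39.4 and 29.1 times IL13RA1 RNA. IL13RA1 was 3.37 and 3.26 times IL4R in T24T and 1.31 and 1.43 times IL4R in UMUC3. STAT6 was 6.88 times IL4R in both UMUC3 libraries, whereas IL4R was 27.2 and 29.5 times STAT6 in T24T.

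The question of how far the lines stand apart was put to the vector libraries and the BCUC-1 libraries separately, as ratios of the shares of assigned reads. IL13RA2 was 570-fold (300 to 1248) higher in UMUC3 in the vector pair and 233-fold (149 to 387) in the BCUC-1 pair. STAT6 was 106-fold (73.5 to 158) and 117-fold (80.9 to 176) higher. IL13RA1 was 4.53-fold (4.06 to 5.08) and 3.95-fold (3.54 to 4.43) lower in UMUC3. IL4R was 1.77-fold (1.56 to 2.01) and 1.73-fold (1.53 to 1.98) lower. The pairs thus gave the same direction for each gene, with the widest gap between pairs at IL13RA2, whose T24T level rests on 9 and 19 reads.

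On log2(RPKM + 1), a scale that understates the change of genes near 0, the UMUC3 minus T24T difference averaged over both pairs was 6.52 for IL13RA2. It was 4.06 for STAT6, -1.82 for IL13RA1 and -0.63 for IL4R. Among 16244 genes with at least 1 RPKM in a library, IL13RA2 was second and STAT6 was number 26 from the highest. IL13RA1 was number 436 from the lowest. At least 2-fold apart in both pairs were IL13RA2 and STAT6 (higher in UMUC3) and IL13RA1 (lower), against 6.47% of all genes higher and 8.29% lower. These counts come from the contrast that chose IL13RA2, and nothing is read from them. Both IL13RA2 and STAT6 reached 1 RPKM in UMUC3 alone, so having passed that floor they had to differ.

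**Figure D2:**
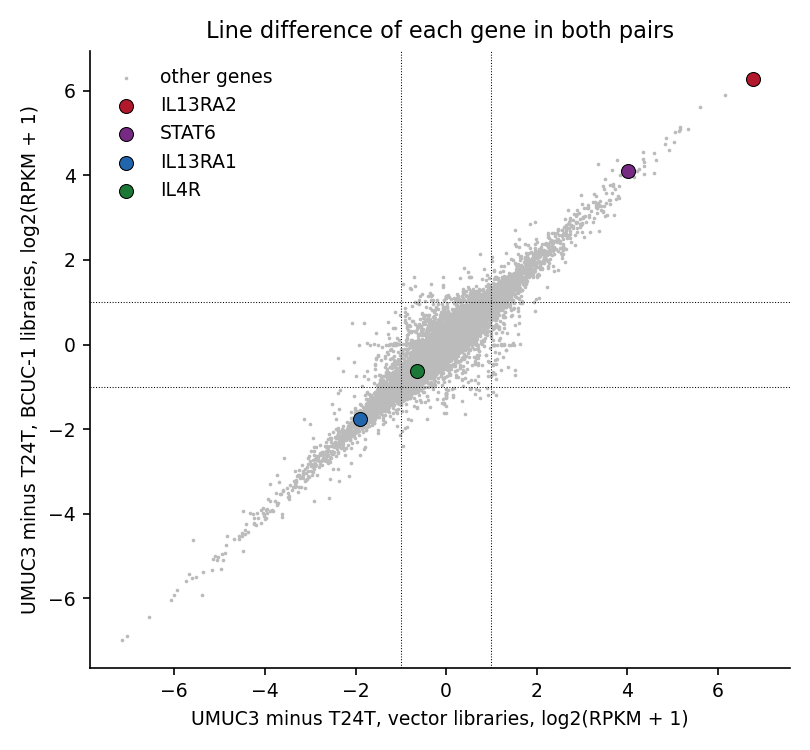
UMUC3 minus T24T difference in log2(RPKM + 1) for the vector libraries (horizontal) and the BCUC-1 libraries (vertical), 1 point per gene with at least 1 RPKM in a library; dotted lines mark 2-fold. IL13RA2 sits at the upper right end at 6.77 and 6.28, STAT6 at 4.0 and 4.1, IL13RA1 at -1.90 and -1.75, and IL4R inside the dotted square at -0.63 and -0.62.

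The genes ranked beside IL13RA2 showed what else separates the lines this far. Above it stood CTD-2184D3.5 (6.55), and below it LINC01029 (6.02), the matrix protein gene SPARC (5.60), the retinaldehyde dehydrogenase gene ALDH1A1 (5.21), the tumour antigen gene MAGEA6 (5.14) and BAGE5 (5.13). By the distance between centred log2(RPKM + 0.1) profiles over the 4 libraries, the nearest of 16243 genes were LINC01029 (0.28), ALDH1A1 (0.49) and CTD-2184D3.5 (0.56). The tumour antigen gene MAGEA4 (0.57) and CTB-60B18.15 (0.59) followed. ALDH1A1 stood at 0.0593 and 0.104 RPKM in T24T and at 41.5 and 36.9 in UMUC3. Like IL13RA2 it was lower in the BCUC-1 library of UMUC3, a step that the distance itself takes in. Within a distance of 1 there were 13 genes for IL13RA2, 89 for STAT6, 1633 for IL13RA1 and 9194 for IL4R. These profiles have 4 points and mostly contrast 2 lines, so likeness here is mostly a like line difference. Far fewer genes shared the profile of IL13RA2 or STAT6 than that of IL13RA1 or IL4R.

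Genes next to the members in the genome showed line differences of various sizes and directions. HTR2C, a serotonin receptor gene 93.9 kb from IL13RA2, stood at or under 0.039 RPKM in every library. LRCH2, 90.6 kb away on the other side, was at 0.763 and 0.688 in T24T and 0.375 and 0.348 in UMUC3. Beside IL13RA1, DOCK11, an exchange factor gene for small GTPases, was at 1.52 and 1.42 in T24T and 0.792 and 0.694 in UMUC3. LONRF3, on its other side, was covered by 65 and 58 reads in T24T and by 0 in both UMUC3 libraries, where a count of 0 allows up to 3 reads per library. Next to IL4R, the interleukin-21 receptor gene IL21R had 0 reads in both T24T libraries, against 46 and 49 for UMUC3. The shared bases of IL4R and the opposite-strand gene CTD-3203P2.3 (339) would carry 8.53 of the 636 IL4R reads in T24T vector at the level of CTD-3203P2.3. Around STAT6, NAB2 stood at 6.37 and 6.23 RPKM in T24T against 8.29 and 9.53 in UMUC3. LRP1 stood at 2.24 and 1.91 against 1.46 and 2.14, and NEMP1 at 14.8 and 14.6 against 21.1 and 19.1. NAB2, LRP1 and NEMP1 were thus read in both lines, while STAT6 was near 0 in T24T. The cause of this was not tested.

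The rest of the pathway was described from a list of 76 further genes, of which 62 were measured and 32 reached 1 RPKM in a library. On log2(RPKM + 1), 3 of the 32 were at least 2-fold higher in UMUC3 in both pairs and 7 lower, and 22 were neither, where 6.47% of all genes were higher and 8.29% lower. The added 1 shrinks differences of low genes, and with 0.1 in its place 4 were higher and 9 lower. The median UMUC3 minus T24T difference was -0.53 on log2(RPKM + 1), beside -0.10 over all genes. Among the ligands, IL4 had at most 2 reads in a library. IL13 and CHI3L1, a lectin-like ligand of IL13RA2, were not among the 32973 listed genes, so their levels are not known. Of the partner chains, IL2RG, the common gamma chain of the IL-4 receptor of blood cells, had 1 read in T24T vector and 0 in the other libraries. TMEM219, a partner of IL13RA2 for CHI3L1, stood at 9.27 and 9.03 RPKM in T24T and 5.72 and 6.18 in UMUC3.

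The Janus kinase genes JAK1, JAK2 and TYK2 were read in both lines. JAK1, which binds IL4R, was at 25.8 and 26.0 RPKM in T24T and 24.2 and 24.7 in UMUC3. JAK2 was at 1.82 and 1.65 against 3.27 and 3.60, and TYK2, which binds IL13RA1, at 8.09 and 6.92 against 3.38 and 4.05. JAK3, the partner of the common gamma chain, was covered by 16 and 12 reads in T24T, against 0 and 1 for UMUC3. None of the 3 kinases that reached 1 RPKM was 2-fold apart in both pairs.

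Of 5 adaptors that link IL4R to growth signalling, all of which reached 1 RPKM, 2 were at least 2-fold lower in UMUC3 on that scale, against 8.29% of all genes. IRS2, an insulin receptor substrate that binds IL4R, stood at 7.11 and 7.40 RPKM in T24T and 0.751 and 0.551 in UMUC3. SHC1, an adaptor of the RAS pathway, was at 101 and 102 against 29.8 and 31.5. IRS1 (-0.14), GRB2 (-0.65) and PIK3R1 (-0.52) were less than 2-fold apart on the log2(RPKM + 1) difference.

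Of 6 other STAT genes 4 reached 1 RPKM, with 0 of them 2-fold higher in UMUC3 in both pairs and 1 lower. STAT3 was the lower one, at 19.7 and 20.4 RPKM in T24T against 7.97 and 8.66. STAT2 was at 5.23 and 4.71 against 2.63 and 3.05, and STAT5B at 10.4 and 9.67 against 6.23 and 6.51. STAT4 and STAT5A had at most 4 reads in a library. Among the STAT6 coactivators NCOA1, CREBBP, EP300 and PARP14, none was 2-fold apart, with differences from -0.64 for CREBBP to 0.54 for NCOA1.

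Of 10 inhibitors of the pathway 8 reached 1 RPKM. At least 2-fold lower in UMUC3, as 8.29% of all genes were, stood 3 of the 8, all SOCS genes, which encode feedback inhibitors of cytokine receptors. SOCS2 had the largest such difference, at 13.5 and 13.9 RPKM in T24T and 0.763 and 0.721 in UMUC3. SOCS1, an inhibitor of Janus kinases, was at 4.41 and 4.01 against 0.678 and 0.503, and SOCS5 at 14.4 and 14.3 against 4.97 and 4.57. SOCS3 was at 12.4 and 12.9 against 9.48 and 9.19. The phosphatase genes PTPN11 (-0.43) and PTPN1 (-0.22) were less than 2-fold apart on the log2(RPKM + 1) difference. BCL6, a repressor that shares binding sites with STAT6, was higher in UMUC3, at 0.142 and 0.107 against 1.70 and 1.81.

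Genes known to be induced by IL-4 and IL-13 were mostly unread in both lines. Of 24 such genes 16 were measured, and TGM2, a transglutaminase, was the one that reached 1 RPKM. It stood at 26.4 and 30.2 RPKM in T24T and 63.1 and 65.4 in UMUC3. SERPINB2, a plasminogen activator inhibitor gene, was covered by 0 and 2 reads in T24T, against 17 and 41 for UMUC3, and the chemokine gene CCL26 had 0 and 0 against 3 and 6. CDH26, a cadherin gene, ran the other way with 27 and 12 reads against 0 and 2. Both listed genes linked to signalling through IL13RA2 were read. FOSL2, an AP-1 subunit, stood at 3.06 and 3.16 RPKM in T24T and 15.9 and 17.4 in UMUC3, and TGFB1, which encodes transforming growth factor beta, at 24.6 and 25.2 against 30.2 and 36.5.

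Of 16 related receptors and ligands 12 were measured and 4 reached 1 RPKM. IL1RL1, the receptor of the type 2 cytokine IL-33, was covered by 245 and 309 reads in T24T, against 1 and 0 for UMUC3. In shares of assigned reads the other 3 were also over 2-fold apart in both pairs, though not on log2(RPKM + 1). How many of all genes were so by that measure was not counted, so nothing is read from it. With a pseudocount of 0.1, 1574 of 16244 genes were 2-fold higher in UMUC3 in both pairs and 2255 lower. IL17RB, the receptor of IL-25, was at 2.17 and 2.20 RPKM against 0.696 and 0.623. IL1RAP, the partner of IL1RL1, was at 1.36 and 1.42 against 0.473 and 0.403, and IL15RA at 0.442 and 0.560 against 1.35 and 1.36. Their share ratios were 3.12 (2.28 to 4.31) and 3.54 (2.51 to 5.08) in favour of T24T for IL17RB, and 2.87 (2.36 to 3.50) and 3.52 (2.83 to 4.40) for IL1RAP. For IL15RA they were 3.06 (2.12 to 4.51) and 2.42 (1.71 to 3.47) in favour of UMUC3. IL1RL1 was thus read in T24T, the line with little IL13RA2 and STAT6.

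**Figure D3:**
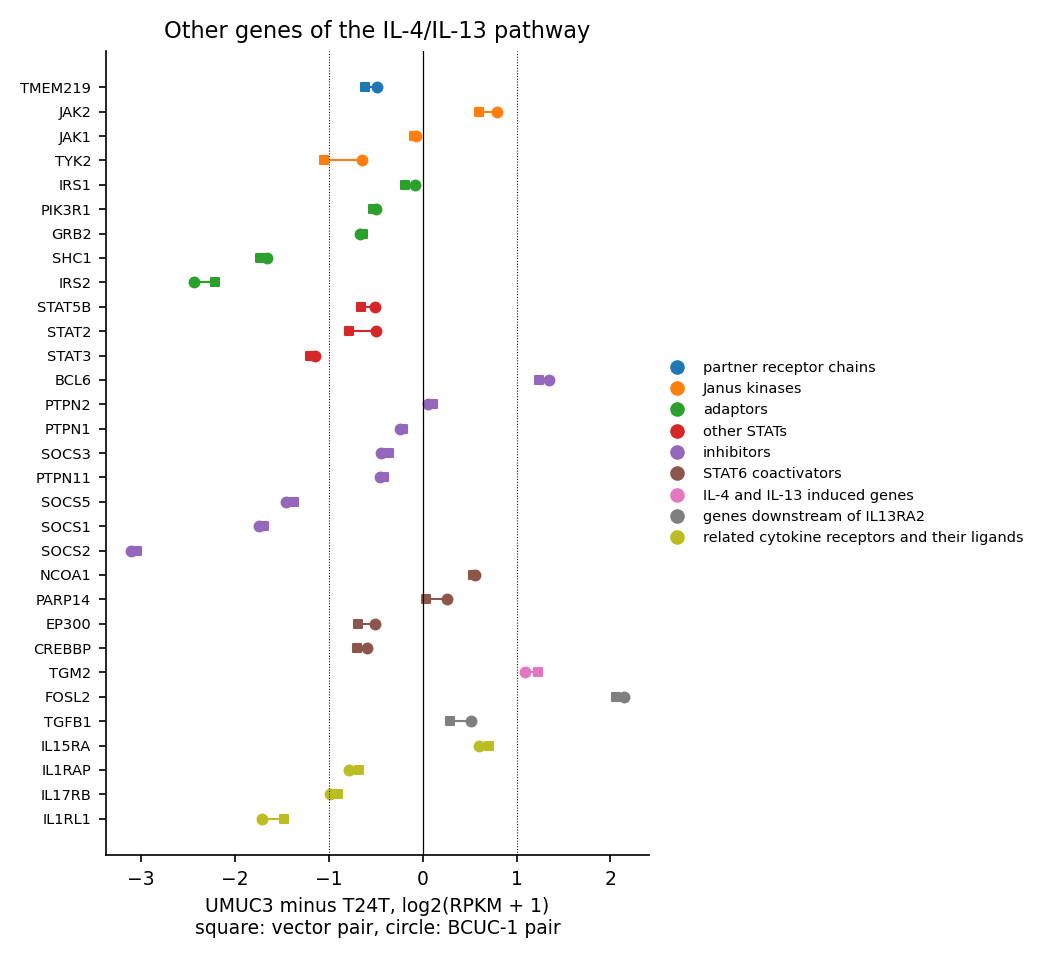
UMUC3 minus T24T difference in log2(RPKM + 1) of the other pathway genes that reached 1 RPKM, 1 of the 32 left out, grouped by role; squares are the vector libraries, circles the BCUC-1 libraries and dotted lines 2-fold. FOSL2, BCL6 and TGM2 lie beyond the right dotted line, and SOCS2, IRS2, SOCS1, SHC1, IL1RL1, SOCS5 and STAT3 beyond the left one.

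The study's own question was which genes respond to BCUC-1, a contrast that did not choose these genes. On log2(RPKM + 1), 0 of the 4 genes were 2-fold apart between BCUC-1 and vector in UMUC3, where 0.383% of all genes were higher and 0.369% lower. In T24T the count covered IL13RA1 and IL4R, neither of them 2-fold apart, against 0.288% of genes higher and 0.314% lower. IL13RA2 and STAT6 stayed under 1 RPKM in T24T and were not counted there. The T24T ratio of IL13RA2 in reads per assigned read, BCUC-1 over vector, was 2.12 (0.914 to 5.32), from 19 and 9 reads. STAT6 stood at 0.969 (0.556 to 1.69), IL13RA1 at 1.02 (0.953 to 1.10) and IL4R at 1.05 (0.944 to 1.18). All 4 intervals include 1, so no difference was detectable in T24T at this depth. Among T24T genes that reached 1 RPKM, the interval lay above 1 for 5.41% and below 1 for 9.98%.

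In UMUC3, where each of the 4 genes had at least 371 reads, IL13RA2 was at 0.864 (0.830 to 0.899) times its vector level. IL13RA1 was at 1.17 (1.02 to 1.35), STAT6 at 1.07 (1.02 to 1.13) and IL4R at 1.07 (0.930 to 1.24). The intervals of IL13RA2, IL13RA1 and STAT6 exclude 1. Such intervals also excluded 1 for 21.0% of UMUC3 genes on the higher side and 14.9% on the lower side. Among genes whose libraries summed to 1000 or more reads, 23.0% had an interval below 1. The share of such genes above 1, the side of STAT6, was not counted. With 1 library per group these ratios compare 2 libraries and not the conditions.

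**Figure D4:**
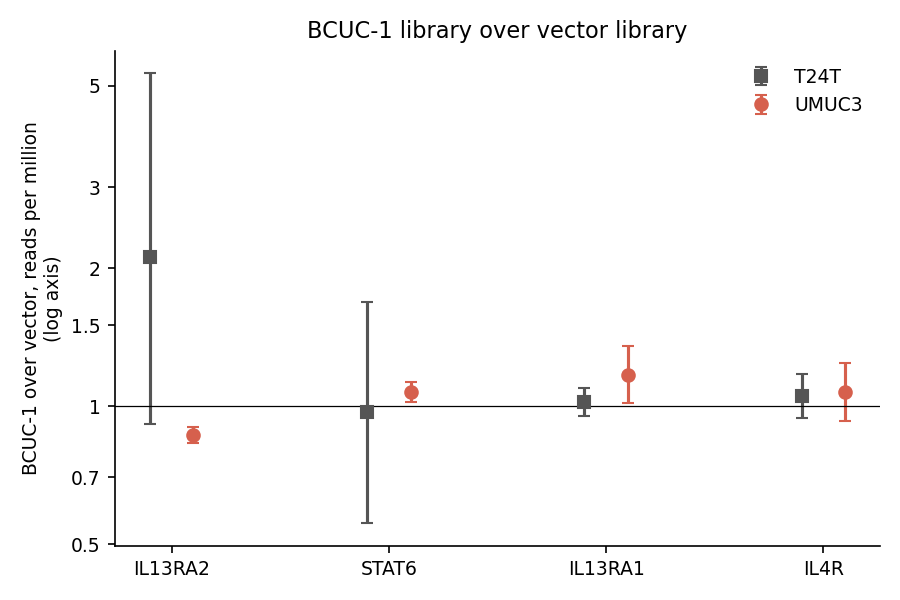
Share of assigned reads in the BCUC-1 library over that in the vector library (log axis) for each gene in T24T (squares) and UMUC3 (circles); bars are exact 95% intervals for counting error. The UMUC3 value of IL13RA2 (0.864) lies below 1 and the T24T interval of IL13RA2 spans 0.914 to 5.32.

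Base composition moved with the UMUC3 values. In UMUC3 the median BCUC-1 minus vector difference on log2(RPKM + 1) ran from -0.16 in the lowest to 0.18 in the highest of 20 groups of genes ordered by GC content. For the group of IL13RA2, whose longest transcript has 38.5% GC, the median was -0.091. IL13RA2 stood at -0.21, and at -0.12 once the median of its group was subtracted. IL13RA1 (42.9% GC) went from 0.18 to 0.20. STAT6 (56.1% GC) went from 0.096 to -0.015 and IL4R (58.1% GC) from 0.074 to -0.047, so both turned sign. In T24T the same step moved none of the 4 by more than 0.021, though STAT6 turned from -0.0064 to 0.0040.

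**Figure D5:**
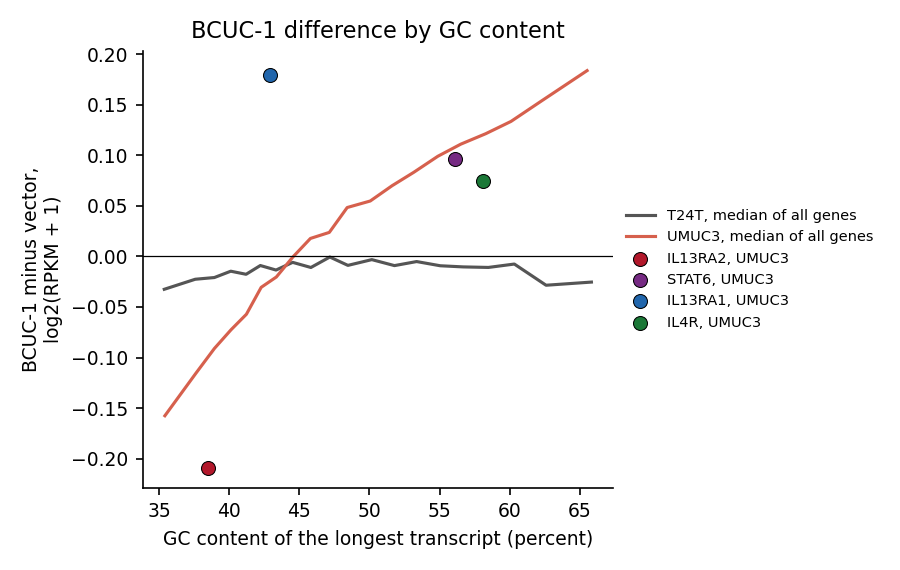
BCUC-1 minus vector difference in log2(RPKM + 1) against GC content; lines are medians of 20 equal groups of genes in T24T and UMUC3, and points are the 4 genes in UMUC3. STAT6 (0.096) and IL4R (0.074) lie just under the UMUC3 line, IL13RA2 (-0.21) below it and IL13RA1 (0.18) above it.

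The test over both lines used limma with the cell line as a block, which left 1 residual degree of freedom. Since no group was repeated, the spread of a gene itself is how far its BCUC-1 minus vector difference varied between the 2 lines. Limma weighed it against a spread fitted over genes of like level, with 5.55 degrees of freedom. Its p-values thus rest mostly on the fitted spread. All 4 genes passed its floor of 1 RPKM in 2 libraries, IL13RA2 and STAT6 through UMUC3 alone. The limma log2 difference was 0.034 (SE 0.12) for IL13RA2, higher in 1 of 2 lines, and 0.10 (SE 0.088) for IL13RA1, higher in 2 of 2. It was 0.069 (SE 0.096) for IL4R, higher in 2 of 2, and 0.045 (SE 0.098) for STAT6, higher in 1 of 2. Each had a Benjamini-Hochberg adjusted p of 0.998 from limma. The share of genes called was 0.00%, since limma passed 0 of 15415, with 652 at an unadjusted p under 0.05. Limma-voom on the recovered reads passed 3 genes higher and 10 lower, none of them among the 4, and turned IL13RA2 to -0.17 (SE 0.10).

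The other pathway genes gave the same answer. Limma passed 0 of the 32 tested at either the adjusted or the unadjusted 0.05 level, with a smallest adjusted p of 0.998, and limma-voom passed 0, with 1 under an unadjusted 0.05. Their median limma difference was 0.013, beside 0.0035 over all genes. Within the lines the log2(RPKM + 1) differences of the genes that reached 1 RPKM ran from -0.20 (TYK2) to 0.23 (IL1RL1) in T24T and from -0.17 (IRS2) to 0.26 (TGFB1) in UMUC3. TGFB1 was covered by 2592 and 2683 reads in UMUC3, a ratio of 1.21 (1.14 to 1.27), and its difference was 0.11 with the GC group median subtracted. TYK2 was lower with BCUC-1 in T24T, at a ratio of 0.855 (0.789 to 0.927), and higher in UMUC3, at 1.20 (1.07 to 1.34), where its GC-adjusted difference was 0.050. Below that floor SERPINB2 had 17 and 41 reads in UMUC3, a ratio of 2.81 (1.56 to 5.28) and a log2(RPKM + 1) difference of 0.43.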

How the data were processed

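The authors deposited RPKM for each gene and library, and per the file headers the exonic Length of each gene in bases. The submitters' processing notes list Bowtie 0.12.2. What it was used for is not given in the sources used here, nor are the counter, its strand setting, the annotation or the build. GRCh38 is printed because 96.9% of the 22652 symbols found once in GENCODE 29 had that gene's start or end. Reads and depths were recovered from RPKM times length, which came out whole for 100% of genes within 0.001 reads.

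BCUC-1 was tested over both lines with limma 3.58.1 (R 4.3.3, intensity trend, two-sided, Benjamini-Hochberg) on log2(RPKM + 1), for genes with at least 1 RPKM in 2 libraries, and the code was tested on simulated data. Within a line and between lines, 2-fold with 1 RPKM in a library was counted. Intervals are exact (Clopper-Pearson for ratios, Poisson for levels). GC content is that of the longest GENCODE transcript, known for 69.1% of genes and for all 4 members.

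The members and lists were chosen with earlier results of these data known. Pathway genes named were all of a role group of up to 6, the 4 most abundant of larger groups and the 5 with the largest line difference each way. Alternatives were a pseudocount of 0.1, no floor, 5 RPKM, equal medians, GC trend removal, limma-voom, no line block and single pairs or lines. A few items named by these rules are not reported here.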

Additional observations from a re-analysis of the deposited data

Results flagged for a closer look

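BCUC-1 minus vector differences of opposite sign in the 2 lines were seen for IL13RA2 and STAT6 on log2(RPKM + 1). IL13RA2 stood at 0.28 in T24T and -0.21 in UMUC3. STAT6 stood at -0.0064 in T24T and 0.096 in UMUC3. With the GC group median subtracted, both STAT6 values turned sign, to 0.0040 in T24T and -0.015 in UMUC3. IL13RA2 kept its signs, at 0.30 and -0.12. With 1 library per group the difference between the lines was not tested, and the T24T values rest on 9 and 19 reads of IL13RA2 and on 29 and 28 reads of STAT6.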

How the results depend on the processing

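The line differences of the 4 genes kept their direction under the 6 alternatives run, and little is read from this. Taking no floor or 5 RPKM cannot change the difference of a gene, and the single pairs are the parts of the mean. The contrast is also the one that chose IL13RA2. With a pseudocount of 0.1 the line differences were 8.12 for IL13RA2, 6.12 for STAT6, -2.05 for IL13RA1 and -0.79 for IL4R. Over both lines IL13RA2 turned to -0.17 with limma-voom and to -0.21 in UMUC3 alone, and STAT6 to -0.0064 in T24T alone. No member passed limma in any setting that tested it. Genes called by limma numbered 26 higher and 34 lower at 5 RPKM, 3 and 10 with limma-voom, and 1 lower with a pseudocount of 0.1. Genes 2-fold higher and lower with BCUC-1 numbered 43 and 47 in T24T and 55 and 53 in UMUC3. They became 93 and 161, and 163 and 117, with a pseudocount of 0.1, and 1 and 6, and 10 and 8, at 5 RPKM. Among the 11601 UMUC3 genes with a known GC content, a restriction added after seeing the data, 40 were higher, and 33 of that set were higher with the GC trend removed. Between the lines 1051 genes higher and 1347 lower became 622 and 766 at 5 RPKM, and 2255 were lower with a pseudocount of 0.1. Of the 5 genes most like IL13RA2, 3 were shared with a pseudocount of 1. The cause of these changes was not tested, beyond the fewer genes left by a higher floor. The labels give no replicate numbers, and the line block is what pairs each BCUC-1 library with a vector library. Without it limma passed 0 genes, with 11 at an unadjusted p under 0.05. Few reads in T24T limit IL13RA2 and STAT6 there.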
